A study of Mus musculus with 7 samples.

Results

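The 10 genes described here are the cadherin genes Cdh1, Cdh2 and Cdh11, the epithelial adhesion gene Epcam, and the transcription factor genes Snai1, Snai2, Zeb1, Zeb2, Twist1 and Twist2 of the epithelial-mesenchymal transition. They were chosen by symbol through their Ensembl IDs among the 43629 genes of the count table. All 10 were found, and all 10 passed the filter on low counts that left 18426 genes for testing. Poly(A) RNA was sequenced from 7 libraries of the mouse embryonic stem (ES) cell line E14 (129/Ola background) and cells derived from it, in 3 groups. Ago2-knockout cells taken through a differentiation towards extra-embryonic endoderm (KO XEN) gave 2 libraries, from the knockout lines C4 and 5-3. Wild-type cells taken through the same differentiation (WT XEN) gave 2 libraries, A and B. The same knockout lines kept as undifferentiated ES cells (KO ESC) supplied 3 libraries, 1 of line C4 and 2 of line 5-3 (5-3_1 and 5-3_2). The differentiation took 5 days in RPMI medium with 15% serum, all-trans retinoic acid at 0.1 µM and activin A at 10 ng/mL, whereas ES cells were kept in serum with LIF, the cytokine that maintains them undifferentiated. Ago2 encodes an Argonaute protein, through which microRNAs repress their target transcripts. Wild-type ES cells were not analysed here, so that in WT XEN against KO ESC genotype and differentiation cannot be told apart. Whether the libraries within a group are separate cultures is not labelled, and p-values measure the spread between libraries only.

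Cadherins are calcium-dependent adhesion proteins that join like cells, with E-cadherin (Cdh1) typical of epithelia and of ES cells, and N-cadherin (Cdh2) and cadherin-11 (Cdh11) typical of mesenchymal and neural cells. In an epithelial-mesenchymal transition cells lose epithelial junctions and gain motility and a mesenchymal matrix. SNAIL-family and ZEB proteins are zinc finger factors that repress Cdh1 and other epithelial genes through E-box sequences, and TWIST proteins are basic helix-loop-helix factors that act in mesoderm and mesenchyme. The microRNAs of the miR-200 family repress Zeb1 and Zeb2 and are themselves repressed by the ZEB proteins. During early mouse development, such transitions accompany gastrulation and the formation of parietal endoderm.

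Library totals were 13941826 and 33389566 counts in KO XEN (C4 and 5-3), between 36427340 and 38595537 in WT XEN, and between 39998808 and 48650113 in KO ESC. Ago2 itself stood at 122 (C4) and 9.94 (5-3) CPM (counts per 1000000 counts of the TMM-scaled library) in KO XEN, against 393 and 432 CPM in WT XEN, with 94.3 (C4), 9.36 and 9.64 (5-3) CPM in KO ESC, so that line C4 held more Ago2 transcript than 5-3 in both states. The summed level of 9 markers of XEN cells or primitive endoderm was 1670 to 2441 CPM in KO XEN, against 22750 to 36650 CPM in WT XEN, with 168 to 184 CPM in KO ESC. For 7 markers of visceral endoderm the sums were 53.6 to 164 CPM in KO XEN, against 11710 to 13400 CPM in WT XEN, with 163 to 219.9 CPM in KO ESC. Both sums thus lay far below WT XEN in the libraries labelled KO XEN, and the label is used here only as a name. Lama1 (12760 CPM) and Col4a1 (13150 CPM) carried most of the first sum in WT XEN, and Cubn (8273 CPM) and Lrp2 (3883 CPM) most of the second. Lrp2 (47.7 against 181 CPM) and Apob (1.37 against 2.07 CPM) had lower means in KO XEN than in KO ESC. Cubn had a higher one (48.6 ± 56.4 CPM, SD, against 11.4 CPM), as had Afp, Ttr, Apoa1 and Amn, each with an SD near or above its KO XEN mean. Sox17 had 3.21 CPM in KO XEN against 90.5 CPM in WT XEN. Gata6 differed less, at 133 against 276.5 CPM. Gata6 (1.70 CPM in KO ESC) and Gata4 (63.2 CPM in KO XEN, 3.85 CPM in KO ESC) stood higher in KO XEN than in KO ESC. The 8 markers of fibroblasts or mesenchyme summed to 2571 to 4111 CPM in KO XEN, against 327 to 738 CPM in WT XEN, with 14.1 to 24.2 CPM in KO ESC, with Lum at 0 in KO XEN and Col3a1, Postn and Lum at 0 in KO ESC. Col1a1 and Col3a1 carried the KO XEN sum with means of 1793 and 1337 CPM, whereas Col1a2 (32.3 CPM in KO XEN against 135 CPM in WT XEN), Dcn (8.01 against 9.16 CPM), Lum (0 against 1.14 CPM) and Thy1 (2.85 against 3.20 CPM) had lower means in KO XEN than in WT XEN. The 6 neural crest markers summed to 148 to 242 CPM in KO XEN, against 51.5 to 79.7 CPM in WT XEN, with 21.7 to 26.2 CPM in KO ESC, with Tfap2b at 0 in WT XEN and KO ESC. Ets1 alone made up most of the sum in the differentiated groups, at 192 CPM in KO XEN against 63.8 CPM in WT XEN, and the other 5 markers averaged below 2 CPM in KO XEN. Foxd3 ran the other way, at 0.0461 CPM in KO XEN, against 0.165 CPM in WT XEN and 20.0 CPM in KO ESC. The 6 neural markers summed to 458 to 530 CPM in KO XEN, against 58.0 to 87.7 CPM in WT XEN, with 84.7 to 108 CPM in KO ESC. Nes made up most of the KO XEN sum, at 378 CPM against 49.7 CPM in WT XEN. Pax6, Tubb3 and Dcx also had higher means in KO XEN than in the other groups. Sox1 did not, at 0.134 CPM in KO XEN, 0.179 CPM in WT XEN and 3.73 CPM in KO ESC. Map2 differed little, at 10.5, 8.07 and 10.7 CPM in the same order. The 8 ES cell markers summed to 27.6 to 42.8 CPM in KO XEN, against 699.8 to 726 CPM in WT XEN, with 5433 to 5708 CPM in KO ESC. Dppa5a made up most of the WT XEN sum, at 533 CPM against 16.3 CPM in KO XEN. Pou5f1, Nanog, Zfp42 and Esrrb also had lower means in KO XEN than in WT XEN. Sox2 (4.48 against 4.32 CPM), Klf2 (0.949 against 0.906 CPM) and Tdgf1 (3.72 against 3.41 CPM) differed little between these groups. Markers of blood or endothelium summed to 37.95 to 45.86 CPM in KO XEN, 29.2 to 32.26 CPM in WT XEN and 96.6 to 138 CPM in KO ESC. Markers of cardiac or skeletal muscle summed to 13.69 to 19.3 CPM in KO XEN, 4.85 to 7.46 CPM in WT XEN and 8.04 to 9.02 CPM in KO ESC. Nkx2-5 (7.48 CPM) and Myl7 (6.52 ± 4.83 CPM, SD) made up most of the KO XEN sum, and Tnnt2 also had its highest mean there. Myh6 ran the other way, at 0.279 CPM in KO XEN against 5.09 CPM in KO ESC. Myod1 and Myog were at 0 in KO XEN, as was Myog in WT XEN. The part of these marker levels in the results on the 10 genes was not tested.

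MicroRNAs act through a seed at bases 2 to 8, and the mature miR-200 family falls into 2 seed groups in mouse. The sequences are shown because the family is known to target the ZEB transcripts and needs an Argonaute protein to do so. Capitals mark the seed, and sequences are those of RefSeq for GRCm38.p6. In the first seed group miR-200b lies at chr4:156055685-156055706, miR-200c at chr6:124718324-124718346 and miR-429 at chr4:156053916-156053937, all on the minus strand.
mmu-miR-200b-3p: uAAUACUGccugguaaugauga
mmu-miR-200c-3p: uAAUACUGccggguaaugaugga
mmu-miR-429-3p: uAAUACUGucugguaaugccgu

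The other seed group differs from the first at a single base of the seed, with miR-200a at chr4:156054911-156054932 and miR-141 at chr6:124717917-124717938, both on the minus strand.
mmu-miR-200a-3p: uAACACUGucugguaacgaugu
mmu-miR-141-3p: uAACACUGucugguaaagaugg

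The 7-base matches to these seeds, CAGTATT and CAGTGTT, were searched on the sense strand of the longest 3′ UTR of each gene in GENCODE M21. CAGTATT was present in 13.3% of the 3′ UTRs of 21037 genes and CAGTGTT in 17.2%. Zeb1 (UTR of 2401 bases) and Zeb2 (4941 bases) each held 5 CAGTATT and 4 CAGTGTT matches, and 5 or more CAGTATT matches occurred in 6 genes (0.03%). Snai2 held 1 match of each kind, Snai1 and Cdh11 held 1 CAGTATT match each, and the UTRs of Cdh1, Epcam, Cdh2, Twist1 and Twist2 held neither. The 5 CAGTATT matches of Zeb2 lay on the minus strand of chromosome 2, in its 3′ UTR, between chr2:44987528-44987534 and chr2:44988174-44988180 (GRCm38). Each is shown with 14 bases before it and 7 after it, the match in capitals.
Zeb2 UTR base 393: gcactaccatacatCAGTATTttattat
Zeb2 UTR base 458: gcactacagtgcatCAGTATTacgattc
Zeb2 UTR base 820: tgaagcacccgtgtCAGTATTagacgac
Zeb2 UTR base 905: ttcattaattttgtCAGTATTacaccaa
Zeb2 UTR base 1039: catactgtagtgtaCAGTATTatagttc

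A match is a description of the letters and not a site shown to be used. Small RNAs, miR-200 among them, were not measured in these libraries.

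The bases before the start of Epcam and Snai1 are shown because they hold the E-box letters that SNAIL and ZEB proteins are known to bind. RefSeq start sites with a promoter were matched for 5 of the 10 genes (8 promoters). No promoter was matched for Cdh1, Cdh2, Cdh11, Snai2 and Zeb1, which were therefore not searched. The window ran from 250 bases before to 50 bases after the start, and CAGGTG and its reverse complement CACCTG were searched in it on both strands. Such a box occurred in 20.2% of 32851 RefSeq promoters, and 2 or more in 2.9%. Epcam held 2, beginning 187 and 19 bases before the start, Snai1 held 1, beginning 126 bases before the start, and the windows of Twist1, Twist2 and Zeb2 held none. Capitals mark the boxes in the 250 bases before the start, which lie upstream of the first exon of each gene.
Epcam, chr17:87635729-87635978, plus strand: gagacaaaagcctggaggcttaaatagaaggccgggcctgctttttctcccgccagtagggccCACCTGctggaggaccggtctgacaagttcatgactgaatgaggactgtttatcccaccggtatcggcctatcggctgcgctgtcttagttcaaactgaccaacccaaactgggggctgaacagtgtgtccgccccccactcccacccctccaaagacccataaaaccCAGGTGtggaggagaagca
Snai1, chr2:167537945-167538194, plus strand: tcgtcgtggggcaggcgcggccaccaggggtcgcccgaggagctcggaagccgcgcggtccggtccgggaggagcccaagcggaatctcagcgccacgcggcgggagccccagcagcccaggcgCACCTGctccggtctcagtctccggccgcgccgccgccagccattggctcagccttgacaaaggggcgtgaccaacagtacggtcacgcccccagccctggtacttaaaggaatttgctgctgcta

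Differentiated knockout cells had less transcript of both epithelial adhesion genes, more of Cdh2 and Cdh11, and more of every transition factor but Snai1 than differentiated wild-type cells. Of the 10 genes, 9 were called in KO XEN against WT XEN at an adjusted p below 0.05, 7 of them higher and 2 lower, where 46.2% of all genes tested were called (22.3% higher and 23.9% lower). The median log2 fold change of the 10 genes was 1.77, against 0 over all genes. In KO XEN against KO ESC all 10 were called, 8 higher and 2 lower, where 69% of all genes were called (34.8% higher and 34.3% lower), and their median log2 fold change was 4.14, against -0.08 over all genes. In WT XEN against KO ESC 8 were called, 7 higher and 1 lower, where 62.5% of all genes were called (32.2% higher and 30.3% lower), and the median was 2.95, against -0.03 over all genes. Each group stands in 2 of these 3 comparisons, which are therefore not independent. The 10 genes were chosen with earlier results of these data known, so that these counts and medians are a description only. The libraries of the 2 groups did not overlap for 10, 10 and 8 of the genes in these comparisons, in the order given, where 76.5%, 81% and 76.1% of all genes did not overlap. In these bulk libraries fewer cells of a type and less RNA per cell cannot be told apart.

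**Figure D1:**
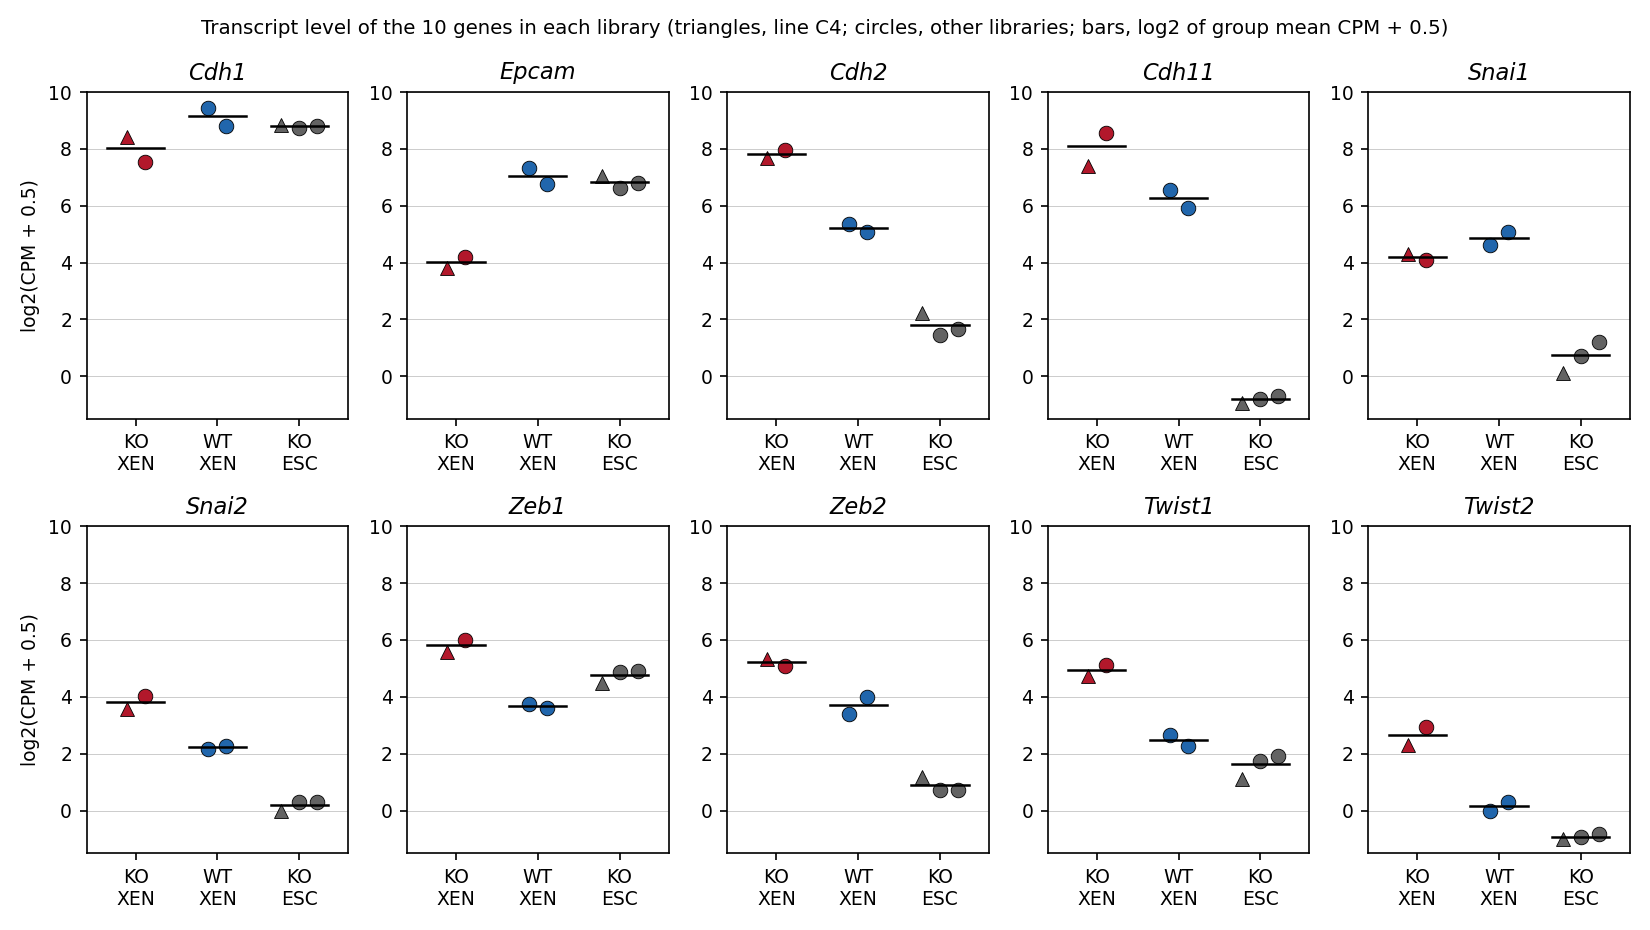
Each panel plots a gene's level as log2(CPM + 0.5) in the 7 libraries by group (triangles, line C4; circles, other libraries; bars, log2 of the group's mean CPM + 0.5). Cdh2 stands at 203 and 248 CPM in KO XEN, above all other libraries, and Epcam at 13.4 and 17.7 CPM in KO XEN, below all other libraries.

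Cdh1 (ENSMUSG00000000303, chr8:106603351-106670246, plus strand, mm10) encodes E-cadherin, the main adhesion protein of epithelia and of ES cell colonies. It stood at 340.4 (C4) and 184 (5-3) CPM in KO XEN, 699.8 (A) and 450.1 (B) CPM in WT XEN, and 455 (C4), 427 (5-3_1) and 451 (5-3_2) CPM in KO ESC. Both KO XEN libraries were lower than every other library, line 5-3 the lowest, while WT XEN B lay within the narrow range of KO ESC and WT XEN A above it. The group means were 262 ± 111 CPM in KO XEN (SD, n = 2), 575 ± 177 CPM in WT XEN (n = 2) and 444 ± 14.9 CPM in KO ESC (n = 3). Cdh1 fell in KO XEN against WT XEN (log2 fold change -1.13 ± 0.31 SE, edgeR adjusted p = 0.0179) and against KO ESC (-0.76 ± 0.28, edgeR adjusted p = 0.0412). The 2 upper groups in this order, WT XEN and KO ESC, were not called different (0.37 ± 0.28, edgeR adjusted p = 0.265). The call against WT XEN was lost without WT XEN A (-0.87, edgeR adjusted p = 0.0552) and without KO XEN 5-3 (-0.84, edgeR adjusted p = 0.0629). Against KO ESC it was lost without KO ESC C4 (edgeR adjusted p = 0.0545), without KO ESC 5-3_2 (0.0599) and without KO XEN 5-3, where the log2 fold change was -0.46 (edgeR adjusted p = 0.183).

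Epcam (ENSMUSG00000045394, chr17:87635979-87651129, plus strand) encodes a membrane glycoprotein of simple epithelia and pluripotent cells. Its level was 13.4 (C4) and 17.7 (5-3) CPM in KO XEN, 158 (A) and 108 (B) CPM in WT XEN, and 131 (C4), 98.7 (5-3_1) and 110.2 (5-3_2) CPM in KO ESC. The KO XEN libraries lay far below all others, while WT XEN and KO ESC overlapped. Epcam fell in KO XEN against WT XEN (-3.09 ± 0.26, edgeR adjusted p = 0.000197) and against KO ESC (-2.86 ± 0.25, edgeR adjusted p = 2.7e-05), and both calls held in every alternative run. WT XEN and KO ESC were not called different (0.23 ± 0.21, edgeR adjusted p = 0.371). Cdh1 and Epcam were thus the only 2 of the 10 genes lower in KO XEN than in each of the other groups, and the fall of Epcam was the larger of the pair.

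Cdh2 (ENSMUSG00000024304, chr18:16588877-16809246, minus strand) encodes N-cadherin, the cadherin of neural and many mesenchymal cells. It reached 203 (C4) and 248 (5-3) CPM in KO XEN, against 40.2 (A) and 33.0 (B) CPM in WT XEN, and 4.22 (C4), 2.21 (5-3_1) and 2.66 (5-3_2) CPM in KO ESC. The 3 groups did not overlap, and the libraries within each lay close together beside the distance between groups. The log2 fold change was 2.63 ± 0.30 in KO XEN against WT XEN (edgeR adjusted p = 0.000449), 6.22 ± 0.30 in KO XEN against KO ESC (2.28e-06) and 3.59 ± 0.27 in WT XEN against KO ESC (2.51e-05).

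Cdh11 (ENSMUSG00000031673, chr8:102632095-102785642, minus strand) encodes cadherin-11, a type II cadherin of mesenchyme and osteoblasts. It reached 170 (C4) and 378 (5-3) CPM in KO XEN and 94.3 (A) and 59.9 (B) CPM in WT XEN. In KO ESC it had 1, 3 and 6 counts in the 3 libraries, 0.0240 (C4), 0.0720 (5-3_1) and 0.120 (5-3_2) CPM. Groups did not overlap, and line 5-3 stood above C4 in KO XEN by more than the WT XEN libraries differed. Over the summed counts of each group, the ratio was 4214 for KO XEN over KO ESC (exact 95% interval 2291 to 8789, counting error only) and 1029 for WT XEN over KO ESC (559 to 2146). The log2 fold change in KO XEN against WT XEN was 1.83 ± 0.40 (edgeR adjusted p = 0.00726), and the call was lost without WT XEN B (1.53, edgeR adjusted p = 0.0564) and without KO XEN 5-3 (1.06, edgeR adjusted p = 0.0629). Against KO ESC the fitted log2 fold changes of 11.78 ± 0.57 in KO XEN (edgeR adjusted p = 2.36e-06) and 9.95 ± 0.55 in WT XEN (7.49e-06) rest on these few ES counts.

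**Figure D2:**
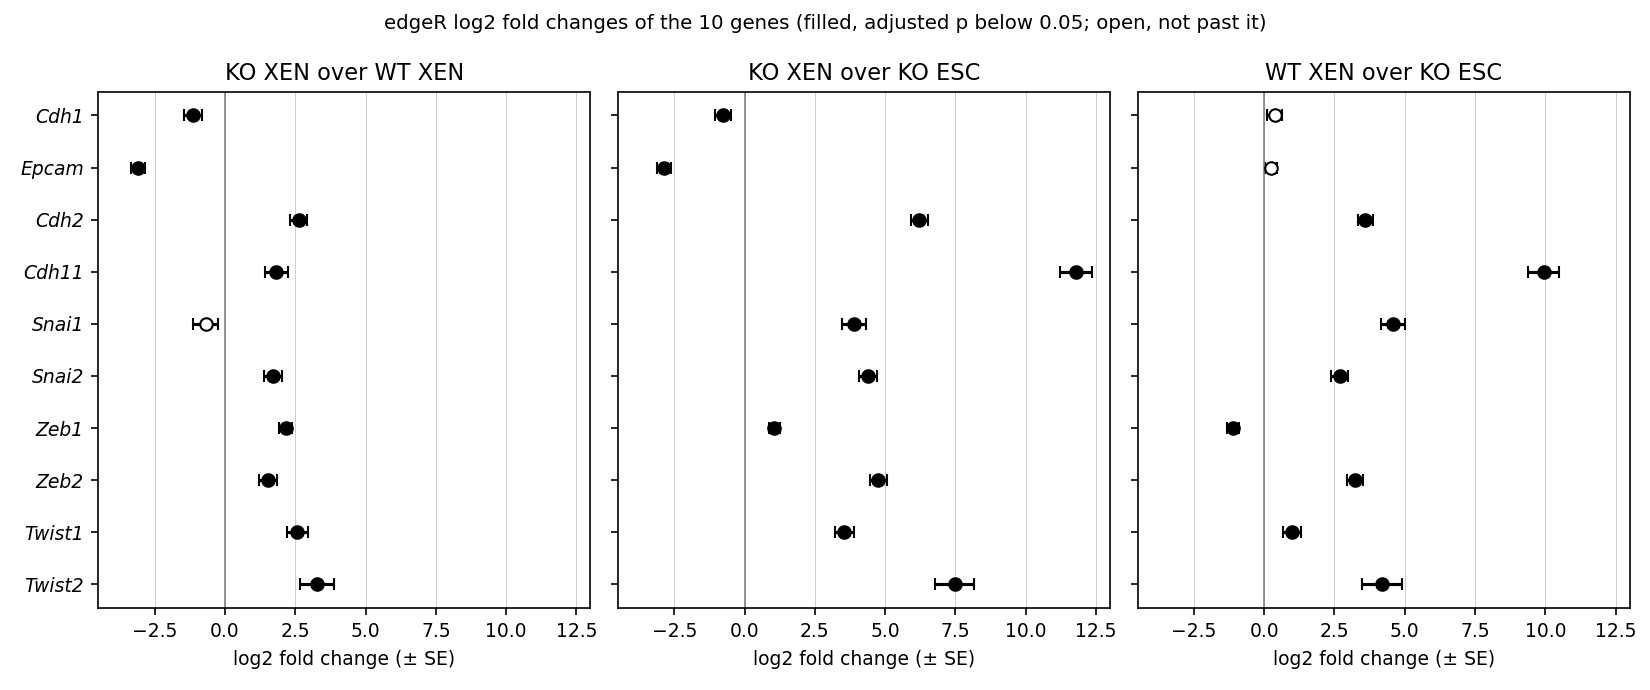
Each panel plots the edgeR log2 fold change with its SE for the 10 genes in a comparison (filled points, adjusted p below 0.05; open points, not past it). Snai1 is the open point of KO XEN over WT XEN at -0.69, and Cdh1 and Epcam are open in WT XEN over KO ESC.

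Levels of different genes are compared per length, as CPM per kilobase of exon (GENCODE M21). The length is the union of all annotated exons of a gene, 19942 bases for Zeb2 and 10266 for Zeb1. Ranks per length therefore depend on the annotation. By group mean, Cdh1 ranked first of the 10 genes in every group, at 57.3 ± 24.2 CPM per kb in KO XEN, against 126 ± 38.6 in WT XEN, with 97.2 ± 3.25 in KO ESC (SD). In KO XEN line 5-3, however, Cdh11 at 42.5 CPM per kb stood above Cdh1 at 40.2, and the KO XEN means of these genes did not differ beyond their spread. In KO XEN the next levels per length were those of Cdh11 at 30.8 ± 16.5 and Cdh2 at 28.0 ± 3.99 CPM per kb, which did not differ beyond their spread. Epcam stood sixth there at 7.08 ± 1.36 CPM per kb, but second in WT XEN at 60.6 ± 16.1 and second in KO ESC at 51.6 ± 7.50 CPM per kb. The most abundant transition factor per length was Twist1 in KO XEN (18.5 ± 3.52 CPM per kb), Snai1 in WT XEN (17.7 ± 4.23) and Zeb1 in KO ESC (2.6 ± 0.387). Zeb2 was the lowest of the 10 genes per length in KO XEN at 1.83 ± 0.211 CPM per kb, beside Twist2 at 1.84 ± 0.601, and the order of this pair was within the spread.

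The share of each cadherin was taken in the summed level per length of 19 classical and type II cadherins, a description added after the levels were seen. Cdh1 made up 39.5% (C4) and 22% (5-3) of this sum in KO XEN, 80.5% (A) and 76.2% (B) in WT XEN, and 85.8% (C4), 94.6% (5-3_1) and 95.2% (5-3_2) in KO ESC. Cdh2 and Cdh11 filled part of the difference. Cdh2 held 13.4% and 16.8% in KO XEN, against 2.62% and 3.17% in WT XEN, with 0.277% to 0.452% in KO ESC. Cdh11 held 10.1% (C4) and 23.2% (5-3) in KO XEN, against 5.57% and 5.21% in WT XEN, with 0.00232% to 0.0130% in KO ESC. A further cadherin, Cdh3 (P-cadherin of basal epithelia and placenta; ENSMUSG00000061048, chr8:106510891-106557297, plus strand, 46053 bases from Cdh1), is named here after its values were seen. It held 31.2% and 30.7% in KO XEN, against 5.07% and 3.86% in WT XEN, with 11.7% (C4), 3.13% and 2.59% (5-3) in KO ESC. Cdh3 had 258 and 247 CPM in KO XEN, against 42.3 and 21.8 CPM in WT XEN, with 59.7 (C4), 13.5 and 11.7 (5-3) CPM in KO ESC. It was higher in KO XEN than in WT XEN (log2 fold change 2.98 ± 0.78, edgeR adjusted p = 0.0156) and than in KO ESC (3.16 ± 0.67, edgeR adjusted p = 0.0035). The call against WT XEN was lost without WT XEN B and without KO XEN C4, with edgeR adjusted p up to 0.107 among all alternatives. The remaining 15 cadherins held 5.73% and 7.32% in KO XEN, against 6.29% and 11.5% in WT XEN, with 1.90% to 2.01% in KO ESC.

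**Figure D3:**
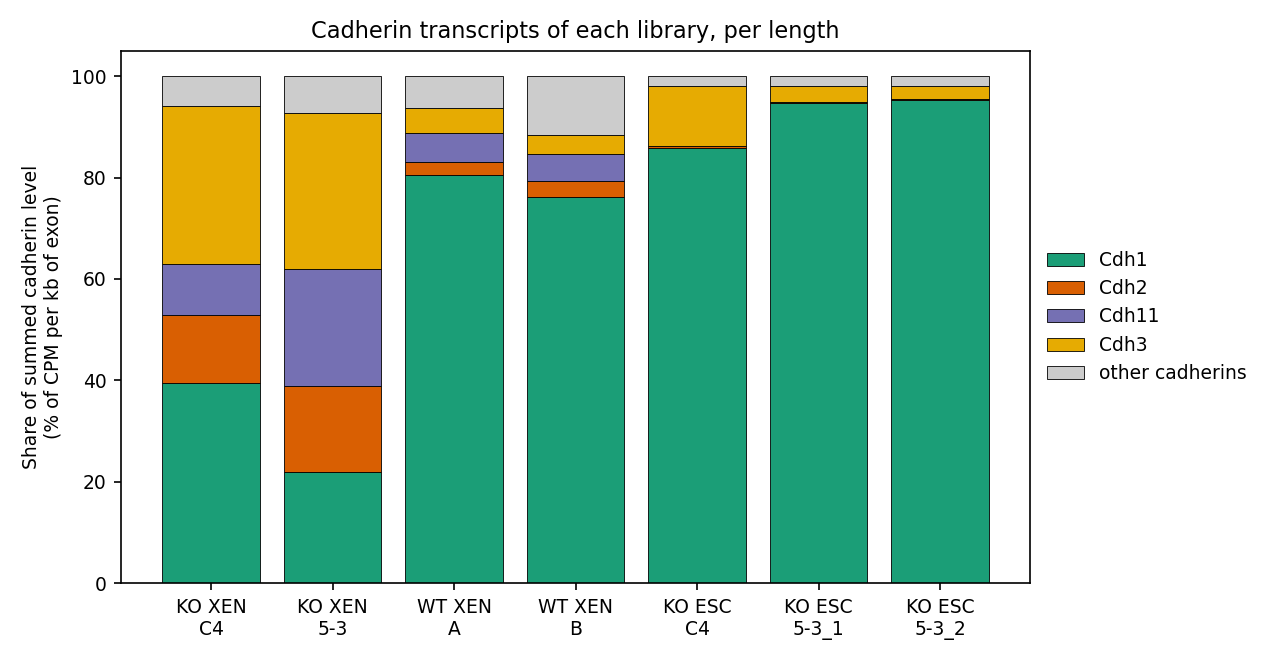
Stacked bars give, for each library, the share of Cdh1, Cdh2, Cdh11, Cdh3 and 15 other cadherins in the summed cadherin level, in percent of CPM per kb of exon. Cdh1 fills 76.2% or more of each WT XEN and KO ESC bar, but 39.5% and 22% of the KO XEN bars, where Cdh3, Cdh2 and Cdh11 take most of the rest.

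Within a library, the log2 ratio of Cdh2 to Cdh1 in CPM + 0.5, which is not per length, was -0.75 (C4) and 0.43 (5-3) in KO XEN, against -4.11 and -3.75 in WT XEN, with -6.59, -7.30 and -7.16 in KO ESC. The libraries of the groups did not overlap, and KO XEN showed the widest gap between its libraries. For Cdh11 to Cdh1 the ratio was -1.0 (C4) and 1.04 (5-3) in KO XEN and -2.89 and -2.90 in WT XEN, and in KO ESC, between -9.76 and -9.51, it depended on the pseudocount. The KO XEN library of line 5-3 had both less Cdh1 and more Cdh11 than that of C4. Each line has a single KO XEN library. In the main fit between the lines neither gene was called (edgeR adjusted p = 0.482 for Cdh1 and 0.144 for Cdh11).

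Snai1 (ENSMUSG00000042821, chr2:167538195-167542814, plus strand) encodes SNAIL, a repressor of Cdh1 that is needed at gastrulation. It had 19.1 (C4) and 16.6 (5-3) CPM in KO XEN, 23.9 (A) and 33.6 (B) CPM in WT XEN, and 0.576 (C4), 1.15 (5-3_1) and 1.82 (5-3_2) CPM in KO ESC. Both differentiated groups were far above the ES cells, and the KO XEN libraries lay below those of WT XEN without overlap. The log2 fold change in KO XEN against WT XEN was -0.69 ± 0.43 (edgeR adjusted p = 0.222), which did not pass the threshold there or in any alternative. Snai1 rose in KO XEN against KO ESC (3.90 ± 0.42, edgeR adjusted p = 8.52e-05) and in WT XEN against KO ESC (4.59 ± 0.43, edgeR adjusted p = 6.27e-05).

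Snai2 (ENSMUSG00000022676, chr16:14705852-14709385, plus strand) encodes SLUG, the related repressor of neural crest and mesenchyme. Its levels were 11.3 (C4) and 15.9 (5-3) CPM in KO XEN, 4.03 (A) and 4.31 (B) CPM in WT XEN, and 0.480 (C4), 0.720 (5-3_1) and 0.740 (5-3_2) CPM in KO ESC. The 3 groups stood apart, with KO XEN highest and KO ESC lowest. The log2 fold change was 1.70 ± 0.33 in KO XEN against WT XEN (edgeR adjusted p = 0.00433), 4.38 ± 0.32 in KO XEN against KO ESC (1.22e-05) and 2.68 ± 0.31 in WT XEN against KO ESC (0.000186). Snai1 and Snai2 thus ranked the differentiated groups in opposite order by their means, and only Snai2 was called between them.

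Zeb1 (ENSMUSG00000024238, chr18:5591860-5775467, plus strand) encodes a zinc finger and homeobox repressor of Cdh1. It stood at 46.9 (C4) and 64.0 (5-3) CPM in KO XEN, 13 (A) and 11.8 (B) CPM in WT XEN, and 22.1 (C4), 28.5 (5-3_1) and 29.4 (5-3_2) CPM in KO ESC. Knockout ES cells lay between the differentiated groups, with no overlap among the 3. Zeb1 rose in KO XEN against WT XEN (2.16 ± 0.23, edgeR adjusted p = 0.000385) and against KO ESC (1.06 ± 0.20, edgeR adjusted p = 0.00188). In WT XEN against KO ESC it fell (-1.10 ± 0.21, edgeR adjusted p = 0.00247), the only gene of the 10 called lower there. Its exons overlap 198 bases of the opposite-strand gene Gm10125, which had 29 counts in all, against 7204 for Zeb1.

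Zeb2 (ENSMUSG00000026872, chr2:44983632-45117395, minus strand) encodes the paralogous repressor, which acts in neural crest and gastrulation. Its levels were 39.5 (C4) and 33.5 (5-3) CPM in KO XEN, 9.97 (A) and 15.3 (B) CPM in WT XEN, and 1.78 (C4), 1.15 (5-3_1) and 1.14 (5-3_2) CPM in KO ESC. The groups did not overlap, and unlike Zeb1 the ES cells were lowest. The log2 fold change was 1.53 ± 0.31 in KO XEN against WT XEN (edgeR adjusted p = 0.00515), 4.75 ± 0.30 in KO XEN against KO ESC (6.96e-06) and 3.22 ± 0.29 in WT XEN against KO ESC (5.58e-05). Exons of Mir5129, Zeb2os and Gm27761 share 662 bases with Zeb2, and these genes had 49 counts in all, against 2732 for Zeb2. Of the 10 genes, Zeb1 and Zeb2, with 9 miR-200 seed matches each, and Snai2 and Cdh11, with fewer, were higher in KO XEN than in WT XEN, and Snai1, with 1, was not called. Of the genes without a match, Cdh2, Twist1 and Twist2 were higher, and Cdh1 and Epcam lower. Small RNAs were not measured, and a part of miR-200 or of Ago2 in these directions was not tested.

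Twist1 (ENSMUSG00000035799, chr12:33957671-33959829, plus strand) encodes a helix-loop-helix factor of cranial mesenchyme and mesoderm. It had 26.1 (C4) and 34.2 (5-3) CPM in KO XEN, 5.81 (A) and 4.34 (B) CPM in WT XEN, and 1.63 (C4), 2.81 (5-3_1) and 3.28 (5-3_2) CPM in KO ESC. KO XEN stood well above the other groups, which lay close together without overlap. Twist1 rose in KO XEN against WT XEN (2.57 ± 0.37, edgeR adjusted p = 0.00114) and against KO ESC (3.55 ± 0.33, edgeR adjusted p = 3.99e-05). The rise in WT XEN against KO ESC was 0.98 ± 0.32 (edgeR adjusted p = 0.0293). That call was lost without WT XEN A (0.79, edgeR adjusted p = 0.15), without KO ESC 5-3_1 (0.06), with upper-quartile scaling (0.0599) and with only these groups in the fit (0.0569).

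Twist2 (ENSMUSG00000007805, chr1:91801461-91848028, plus strand) encodes the related factor of dermal mesenchyme. It was the least abundant of the 10 genes by counts, at 4.50 (C4) and 7.20 (5-3) CPM in KO XEN and 0.493 (A) and 0.719 (B) CPM in WT XEN. In KO ESC the 3 libraries had 0 (C4), 1 (5-3_1) and 3 (5-3_2) counts, and a count of 0 in C4 allows up to 0.072 CPM (3 counts). The summed counts gave a ratio of 213 for KO XEN over KO ESC (exact 95% interval 82.4 to 787, counting error only) and 20.2 for WT XEN over KO ESC (7.34 to 77.3). Twist2 rose in KO XEN against WT XEN (3.27 ± 0.61, edgeR adjusted p = 0.00366) and against KO ESC (7.47 ± 0.69, edgeR adjusted p = 3.83e-05), and in WT XEN against KO ESC (4.20 ± 0.71, edgeR adjusted p = 0.00131). Its exons share 1477 bases with the opposite-strand gene Gm29100, which had 32 counts beside 344 for Twist2. The strand setting of the counting is not given in the sources used here. Whether the opposite-strand partners bore on the counts of Twist2, Zeb1 and Zeb2 is therefore not known. Mir5129 lies on the same strand as Zeb2.

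Both knockout lines were present in both states, so that members could be compared between the lines with state in the model. By edgeR 0 of the 10 genes were called between C4 and 5-3, where 0.0503% of all genes were called (0.0447% higher and 0.00559% lower, 9 of 17887 in all), and 4 of the 10 had an unadjusted p below 0.05, as had 2202 of the 17887 genes. The largest difference was that of Cdh11 (-1.27 ± 0.19 for C4 over 5-3, edgeR adjusted p = 0.144), which was called by DESeq2 (-1.25, adjusted p = 0.0142) and by edgeR without the filter on low counts (-1.33, adjusted p = 0.00909). Within states, the difference of C4 from 5-3 in log2(CPM + 0.5) for Cdh11 was -1.15 in KO XEN and -0.19 in KO ESC, where the counts were near 0. For Cdh1 it was 0.89 in KO XEN and 0.05 in KO ESC. The response to differentiation was not called different between the lines for any of the 10 genes by edgeR or by DESeq2. At an unadjusted edgeR p below 0.05 the interaction was met by 2 of them, Cdh2 and Snai1, and by 1844 of 18426 genes; 0% of all genes were called by edgeR, whereas DESeq2 called 223 other genes. These fits have 2 residual degrees of freedom.

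The other genes of junctions and of the transition were followed in 7 lists, described by counts and medians. These lists, too, were chosen with earlier results of these data known. Over all genes tested, 46.2% were called in KO XEN against WT XEN, 69% in KO XEN against KO ESC and 62.5% in WT XEN against KO ESC, with median log2 fold changes of 0, -0.08 and -0.03, and the share of a list that was called is given for reading against these. Among 24 mesenchymal genes tested (matrix, contractile and intermediate filament genes), 20 rose, 1 fell and 3 were not called in KO XEN against WT XEN (87.5% called), and the median log2 fold change was 2.92. Tpm1, a tropomyosin, rose by 2.63 ± 0.21 (edgeR adjusted p = 0.000182) and Col5a1, a fibrillar collagen, by 3.88 ± 0.34 (edgeR adjusted p = 0.000209). Col1a2, another fibrillar collagen, was the member that fell (-2.06 ± 0.54, edgeR adjusted p = 0.0151). The call of Col1a2 was lost without WT XEN A, without KO XEN C4, without KO XEN 5-3 and without both C4 libraries, with edgeR adjusted p up to 0.115. The list's count of falls was 2 without KO ESC C4 and without KO ESC 5-3_1, and 0 by edgeR without WT XEN A, KO XEN C4 or KO XEN 5-3. Against KO ESC, 23 of the 24 rose in KO XEN (95.8% called, median 6.58) and 20 in WT XEN (83.3%, median 3.06), and 0 fell by edgeR, at an unadjusted p below 0.05 or by DESeq2. Tagln, a smooth muscle actin-binding protein, was 9.47 ± 0.40 higher in KO XEN (edgeR adjusted p = 1.53e-06) and 5.85 ± 0.35 higher in WT XEN (edgeR adjusted p = 9.22e-06) on the log2 scale. Col3a1 and Postn had no count in KO ESC, and both medians were the same with these genes at a floor of 3 counts over the group. The level of this list moved with the fibroblast marker sums given above, with which it shares genes.

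Epithelial junction and membrane genes split by comparison. In KO XEN against WT XEN 4 of 27 rose, 14 fell and 9 were not called (66.7% called, median -1.28), with the clathrin adaptor subunit Ap1m2 at -4.56 ± 0.37 (edgeR adjusted p = 0.000196) and the protease inhibitor Spint2 at -1.55 ± 0.17 (edgeR adjusted p = 0.000427). Against these falls, the desmosomal plakophilin Pkp2 rose by 2.92 ± 0.43 (edgeR adjusted p = 0.00133) and the claudin Cldn4 by 2.66 ± 0.50 (edgeR adjusted p = 0.0036). In KO XEN against KO ESC 17 rose, 2 fell and 8 were not called (70.4% called, median 1.71), and in WT XEN against KO ESC 21 rose, 2 fell and 4 were not called (85.2%, median 2.75). With libraries left out, the genes called higher in KO XEN against WT XEN numbered 2 to 5 (2 without WT XEN B or KO XEN C4) and those called lower 12 to 16. In the comparisons with KO ESC those called lower numbered 1 to 3, with 1 in KO XEN without KO XEN C4, and 1 in WT XEN without KO ESC C4, WT XEN B or both C4 libraries. Keratin 19 (Krt19) stood 5.76 ± 0.23 higher in KO XEN (edgeR adjusted p = 1.49e-06) and 5.09 ± 0.23 higher in WT XEN (edgeR adjusted p = 3.86e-06) than in KO ESC, and Rab25, an epithelial trafficking GTPase, was lower by -4.54 ± 0.69 (edgeR adjusted p = 0.000566) and -3.09 ± 0.57 (edgeR adjusted p = 0.00199). Most junction genes of the list were thus higher in KO XEN than in knockout ES cells, while Cdh1 and Epcam were lower.

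Of 11 regulators of epithelial identity, 6 fell, 0 rose and 5 were not called in KO XEN against WT XEN by edgeR (54.5% called, median -1.72), with 0 higher at an unadjusted p below 0.05 and by DESeq2. The ETS factor Elf3 fell by 3.53 ± 0.30 (edgeR adjusted p = 0.000199), and Klf5, a Krüppel-like factor of epithelia and ES cells, by 2.10 ± 0.23 (edgeR adjusted p = 0.000402). In KO XEN against KO ESC the counts were again 6 lower, 0 higher and 5 not called by edgeR (54.5% called, below the share of all genes; median -1.49), with 1 higher at an unadjusted p below 0.05 and 0 by DESeq2, and with the grainyhead factor Grhl2 at -4.78 ± 0.38 (edgeR adjusted p = 1.69e-05). WT XEN against KO ESC gave 2 higher, 2 lower and 7 not called (36.4% called, also below the share of all genes; median 0.43), with Elf3 at 3.11 ± 0.25 (edgeR adjusted p = 3.22e-05) and Grhl2 at -4.73 ± 0.37 (edgeR adjusted p = 2.85e-05). The higher count there was 4 without KO ESC C4, without KO XEN 5-3 and without both C4 libraries. In KO XEN 1 regulator was called higher against WT XEN without WT XEN A, and 1 against KO ESC without KO ESC C4 or KO XEN 5-3.

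Of 18 other transition-associated transcription factors, 12 rose, 2 fell and 4 were not called in KO XEN against WT XEN (77.8% called, median 2.61), and 1 fell without WT XEN A, WT XEN B or KO XEN C4. The helix-loop-helix inhibitor Id3 rose by 3.50 ± 0.30 (edgeR adjusted p = 0.000202), whereas Klf8 fell by 6.38 ± 0.63 (edgeR adjusted p = 0.000296). Against KO ESC, 13 rose and 2 fell in KO XEN (83.3% called, median 2.58), and 10 rose and 2 fell in WT XEN (66.7%, median 1.09), with Sox9 9.17 ± 0.53 higher in KO XEN (edgeR adjusted p = 4.47e-06) and 6.05 ± 0.52 higher in WT XEN (edgeR adjusted p = 4.41e-05). Co-repressors that SNAIL and ZEB proteins recruit moved in both directions in KO XEN against WT XEN, with 5 of 14 higher, 5 lower and 4 not called (71.4% called, median 0.06). These counts moved with single libraries, to 2 higher and 5 lower without KO XEN 5-3, 3 and 5 without WT XEN A, and 3 and 3 without KO XEN C4, and 3 were lower without WT XEN B. The chromatin remodeller Smarca4 rose by 1.12 ± 0.16 (edgeR adjusted p = 0.001) and the Polycomb genes Suz12 (-2.23 ± 0.21, edgeR adjusted p = 0.000266) and Ezh2 (-1.28 ± 0.17, edgeR adjusted p = 0.00078) fell. Against KO ESC more co-repressors fell than rose, 8 against 4 in KO XEN (85.7% called, median -0.75) and 9 against 3 in WT XEN (85.7%, median -0.88), with Ezh2 lower by -2.73 ± 0.17 in KO XEN (edgeR adjusted p = 5.79e-06) and by -1.45 ± 0.16 in WT XEN (edgeR adjusted p = 0.000133).

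**Figure D4:**
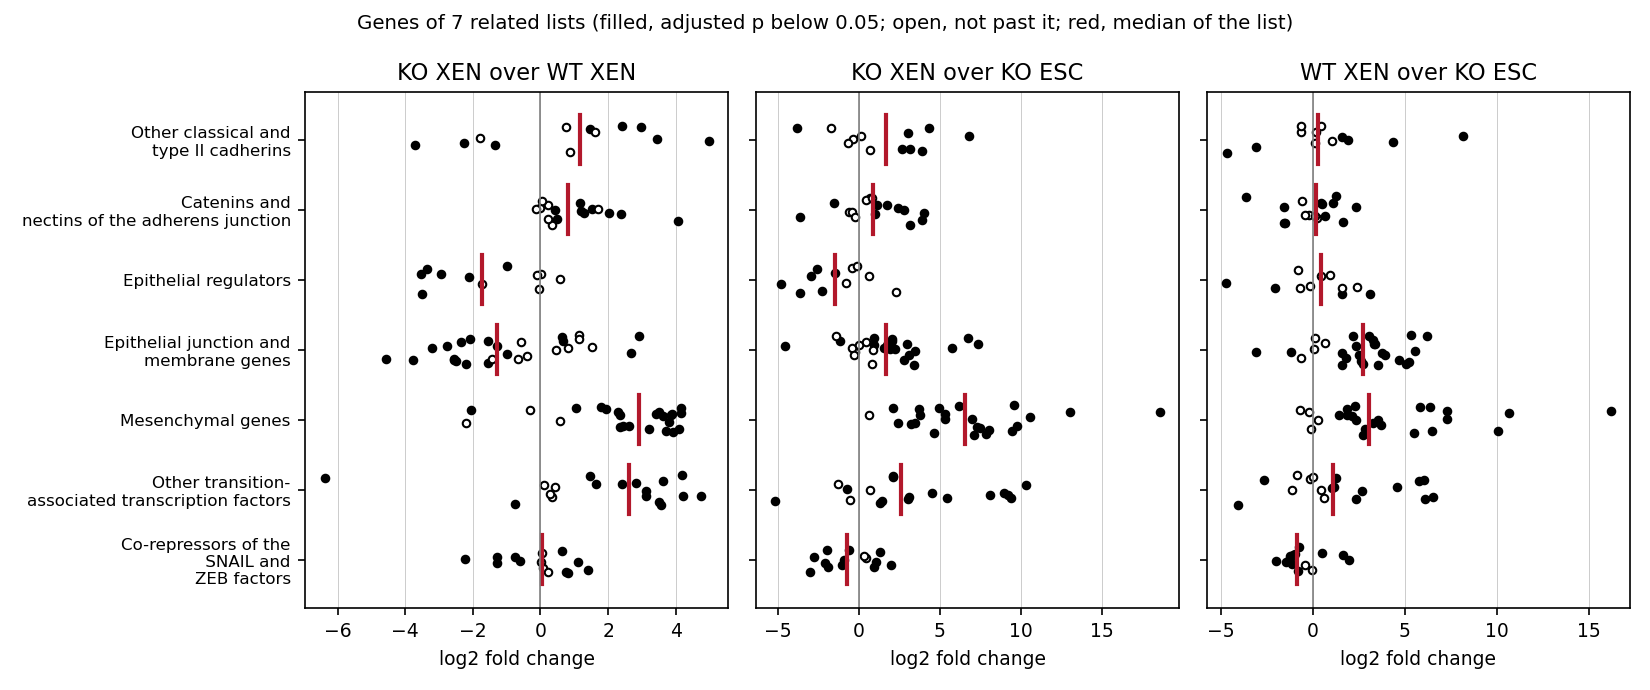
Points give the edgeR log2 fold change of each gene of the 7 related lists in a comparison (filled, adjusted p below 0.05; open, not past it; red line, median of the list; each panel has its own horizontal scale). Mesenchymal genes lie mostly to the right in all panels (medians 2.92, 6.58 and 3.06), whereas epithelial junction genes lie mostly to the left in KO XEN over WT XEN (median -1.28) and to the right in the other panels; the fitted values of Col3a1 and Postn over KO ESC, which had no count there, are no measure of size.

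Among 16 catenin, nectin and related genes of the adherens junction tested, 9 rose, 0 fell and 7 were not called in KO XEN against WT XEN by edgeR (56.2% called, median 0.83), with 0 lower at an unadjusted p below 0.05 and by DESeq2. Vinculin (Vcl), which links junctions and focal adhesions to actin, rose by 2.04 ± 0.19 (edgeR adjusted p = 0.000266), and delta-catenin 2 (Ctnnd2), a neural catenin, by 4.07 ± 0.47 (edgeR adjusted p = 0.000496). In KO XEN against KO ESC 9 rose and 2 fell (median 0.89), or 10 and 4 without KO ESC C4 and 8 and 4 without both C4 libraries. In WT XEN against KO ESC 7 rose and 4 fell (median 0.17), or 4 and 3 without WT XEN A. In both comparisons with KO ESC 68.8% of this list was called, close to the share of all genes. Plakoglobin (Jup) was 2.81 ± 0.17 higher in KO XEN (edgeR adjusted p = 5.09e-06) and 1.62 ± 0.16 higher in WT XEN (edgeR adjusted p = 9.78e-05) than in KO ESC. Of 12 other cadherins tested, 5 rose and 3 fell in KO XEN against WT XEN (median 1.17), 6 rose and 1 fell in KO XEN against KO ESC (median 1.66), and 4 rose and 2 fell in WT XEN against KO ESC (median 0.30). The shares called were 66.7%, 58.3% and 50%, the last 2 below those of all genes. Without WT XEN B, 3 of these cadherins rose and 2 fell in KO XEN against WT XEN, and 1 fell in WT XEN against KO ESC. Cdh10 had 19.5 CPM on average in KO XEN and rose by 3.45 ± 0.48 against WT XEN (edgeR adjusted p = 0.000967), whereas the endothelial Cdh5 fell by 3.71 ± 0.76 (edgeR adjusted p = 0.0054). Cdh6, known from kidney and neural crest, averaged 31.2 CPM in KO XEN, against 78.9 CPM in WT XEN, and stood 6.81 ± 0.45 (edgeR adjusted p = 7.88e-06) and 8.15 ± 0.46 (edgeR adjusted p = 7.91e-06) above KO ESC on the log2 scale.

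The genes whose pattern over the 7 libraries was most like that of Cdh1 or Cdh2 were ranked by Pearson r of log2(CPM + 0.5) among 10871 protein-coding genes, as a description. For Cdh1 these were Txndc17 (r = 0.949), Wwc1 (0.944), Lonp1 (0.935) and Glrx2 (0.931). For Cdh2 they were Zfp697 (r = 0.999), Smtn (0.999), Tom1l2 (0.999) and Plekhg2 (0.999). An r above 0.95 with Cdh2 was reached by 1402 genes, and with Cdh1 by 0. The libraries fall into 3 groups that these coefficients share, and depth differs between them.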

How the data were processed

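Poly(A) RNA of 7 libraries was prepared with a reverse-stranded protocol per the labels and, per the submitters' processing notes, mapped to mm10 by STAR 2.4.2a, with genes counted by featureCounts 1.4.5-p1. The authors deposited raw counts per Ensembl gene, without normalization. The strand setting and annotation release of the counting are not given in the sources used here. Sample titles gave the groups and lines. GENCODE M21 gave symbols for 42548 of 43629 IDs.

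All 7 libraries entered a single edgeR 4.0.16 quasi-likelihood fit of 3 groups (R 4.3.3, limma 3.58.1, TMM scaling, filterByExpr by group), on 4 residual degrees of freedom (common biological coefficient of variation 0.268). Benjamini-Hochberg adjustment ran over all 18426 genes tested, and genes with an adjusted p below 0.05 were called; all adjusted p-values of the text, those after the first of a sentence included, are of this kind unless DESeq2 1.42.0 is named. Standard errors are the log2 fold change divided by the root of F. CPM values use TMM-scaled library sizes. The pipeline was tested on simulated counts.

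The members and lists were chosen with earlier results of these data known. The 10 members are named in each comparison, and of each list up to 4 called genes per comparison (smallest adjusted p, 2 in each direction, at least 1 CPM), not all of which are described. The list entry Ctgf was matched under its current symbol Ccn2. Knockout lines C4 and 5-3 pair KO XEN with KO ESC by their labels. Over 18426 genes the C4-minus-5-3 differences of the 2 states had r = 0.0634. Alternatives were other scalings, no filter, DESeq2, a line block, only the groups compared, and leaving out libraries.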

Additional observations from a re-analysis of the deposited data

How the results depend on the processing

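In the 3 comparisons of groups, the number of the 10 genes called stayed within 1.5 times under all 14 alternatives. Over the 10 genes in these comparisons and between the lines, 455 of 470 alternative values kept direction and side of the threshold, 11 lost a call, 2 gained one and 2 changed sign. Lost calls are those of Cdh1, Cdh11 and Twist1 given above. Epcam, not called in WT XEN against KO ESC, ran from -0.034 (without WT XEN A) to 0.487 when libraries were left out, and its difference between lines was -0.003 without the low-count filter. With the knockout line as a replicate block, 8863, 12907 and 11696 genes were called in KO XEN against WT XEN, KO XEN against KO ESC and WT XEN against KO ESC, and no call of a member changed. Between lines C4 and 5-3, 9 genes were called by edgeR, but 374 without the filter, 447 by DESeq2 and 14 with all 7 libraries in the fit, with 1 member (Cdh11) called without the filter and 1 by DESeq2. Upper-quartile scaling shifted the median of all genes by -0.12 in KO XEN against KO ESC and by -0.17 in WT XEN against KO ESC. Leaving out a KO XEN or WT XEN library leaves a single library in that group, assumed to vary like the others. The mean log2 ratio of Cdh11 to Cdh1 in KO ESC was -11.37 with a pseudocount of 0.1 and -8.70 with 1. Depth limits Cdh11 and Twist2 in KO ESC, with 10 and 4 counts in all.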
